A study of Mus musculus with 2 samples.

Results

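The 10 genes described here encode proteins of the synaptic vesicle membrane and were followed in the mouse hippocampus. They were chosen by symbol, as 10 of the 55536 genes of the annotation, and form 3 families: the synapsins Syn1, Syn2 and Syn3, the synaptophysin and synaptogyrin genes Syp, Synpr, Syngr1 and Syngr3, and the SV2 genes Sv2a, Sv2b and Sv2c. The tissue came from B6CASTF1/J males aged 2 months, first-generation hybrids of C57BL/6J with CAST/EiJ, and 300 ng of total RNA with ERCC spike-ins went into each sequencing library. Biological replicates 1 and 2 are the only libraries and make up 1 group with no treatment, no altered gene and no control group, so nothing was tested between conditions. The donor label is that of the strain and is shared by both, so whether the libraries came from separate animals is not given. The spread between the libraries therefore cannot be read as a spread between animals.

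Synaptic vesicles store neurotransmitter in the nerve terminal and release it by fusing with the presynaptic membrane. Synapsins are phosphoproteins on the outer face of the vesicle that tether vesicles into a reserve pool and let go of them when kinases phosphorylate them. Synaptophysin, synaptoporin and the synaptogyrins cross the vesicle membrane several times and are related in sequence, and synaptophysin binds the vesicle SNARE synaptobrevin. The SV2 proteins are transporter-like glycoproteins of the vesicle. SV2A is the binding site of the antiepileptic drug levetiracetam, and SV2 proteins are receptors for botulinum neurotoxin A.

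The synapsin genes make short and long proteins by alternative splicing at the 3′ end, and the sequences that set them apart are shown because the levels given below turn on them. All are coding bases of GENCODE M21 transcripts on mm10, read 5′ to 3′ on the strand of the gene. In Syn1 the last exon starts 38 bases earlier in Syn1-201, the transcript of synapsin Ia with 706 residues, than in Syn1-202, that of synapsin Ib with 670 residues. The stretch lies within chrX:20861547-20862528 on the minus strand. Capitals mark the 38 bases that Syn1-201 alone holds, and in Syn1-202 the 25 bases that follow the same junction up to its last codon, which also end the first line, there in another reading frame.
Syn1-201: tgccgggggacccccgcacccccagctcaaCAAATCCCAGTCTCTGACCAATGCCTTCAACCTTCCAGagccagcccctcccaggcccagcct
Syn1-202: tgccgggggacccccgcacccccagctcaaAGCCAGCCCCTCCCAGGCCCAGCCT

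In Syn2 the paths part at the end of a shared exon. Syn2-201, which encodes synapsin IIa with 586 residues, is spliced on to a further exon, within chr6:115274227-115278165 on the plus strand. Syn2-202 and Syn2-203, which encode synapsin IIb with 479 residues, read on past the splice site, within chr6:115274227-115274321. The capitals begin where the transcripts part, and in Syn2-202 they run to its last codon.
Syn2-201: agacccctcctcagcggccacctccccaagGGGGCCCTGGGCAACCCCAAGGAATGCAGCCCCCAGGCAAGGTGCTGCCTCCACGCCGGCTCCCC
Syn2-202: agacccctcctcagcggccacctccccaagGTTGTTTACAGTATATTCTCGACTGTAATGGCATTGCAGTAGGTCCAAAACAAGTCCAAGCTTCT

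The long forms of all 3 synapsins end in a related stretch, the domain E by which the a isoforms are known. The last 130 coding bases of Syn1-201 (chrX:20861477-20861606, minus strand), Syn2-201 (chr6:115281091-115281220, plus strand) and Syn3-201 (chr10:86055535-86055664, minus strand) are set below each other from their shared end without gaps, with the bases that all 3 have in capitals.
Syn1-201: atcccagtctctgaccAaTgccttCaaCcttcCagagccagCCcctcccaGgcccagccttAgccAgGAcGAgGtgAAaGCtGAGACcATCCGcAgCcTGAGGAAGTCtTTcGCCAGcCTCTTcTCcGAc
Syn2-201: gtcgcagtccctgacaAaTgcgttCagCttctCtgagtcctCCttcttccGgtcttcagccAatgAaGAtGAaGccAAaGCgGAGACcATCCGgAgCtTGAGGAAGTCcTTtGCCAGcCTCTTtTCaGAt
Syn3-201: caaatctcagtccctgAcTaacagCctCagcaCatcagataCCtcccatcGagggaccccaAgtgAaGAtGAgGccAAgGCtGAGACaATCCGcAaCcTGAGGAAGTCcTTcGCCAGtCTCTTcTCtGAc

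The 3 sequences hold the same base at 57 of 130 positions, most of them near the 3′ end. Of the 43 residues encoded there, 31 are identical between Syn1-201 and Syn2-201, 21 between Syn1-201 and Syn3-201 and 22 between Syn2-201 and Syn3-201.

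Syngr1 also has alternative last exons, which give synaptogyrin 1 different cytoplasmic ends. Syngr1-201 (234 residues) is spliced to the exon whose first 90 bases are in capitals (within chr15:80111715-80115944, plus strand), and Syngr1-202 (191 residues) to another, all of whose coding bases are in capitals (within chr15:80111715-80113255).
Syngr1-201: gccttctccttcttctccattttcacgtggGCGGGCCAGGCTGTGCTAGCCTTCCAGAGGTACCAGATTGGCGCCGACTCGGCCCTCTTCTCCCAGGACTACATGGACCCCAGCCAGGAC
Syngr1-202: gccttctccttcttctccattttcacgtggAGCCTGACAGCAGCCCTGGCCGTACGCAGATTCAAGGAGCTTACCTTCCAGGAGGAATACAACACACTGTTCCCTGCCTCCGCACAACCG

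Levels are given as TPM, transcript abundance per length scaled to a fixed sum, so that genes of different length can be set side by side. They come from the quantification based on reads aligned to the transcriptome (the alignment quantification), unless the one made directly from the reads (the reads quantification) is named. Values are the mean ± SD over the 2 libraries (n = 2) where no library is named. Expected counts, the estimated reads per gene, summed to 31422827 and 31303010 in replicates 1 and 2, of which the 10 genes held 108904 and 109366. Markers of the labelled tissue were present, with all 3 markers detected for each of dentate granule cells, CA1 and CA3 pyramidal cells at medians of 39.7, 58.2 and 31.5 TPM, and all 6 of GABAergic interneurons at 30.9 TPM. Mossy cell markers were low, with 2 of 3 detected and a median of 1.42 TPM over all 3. Glia were present too, with medians of 158 TPM for 4 oligodendrocyte, 88.1 TPM for 4 astrocyte and 14.8 TPM for 4 microglia markers. Of the neighbouring choroid plexus and striatum, 2 of 3 markers each were detected, Ttr at 16.9 and Kl at 4.0 TPM for the choroid plexus and Ppp1r1b at 22.7 and Drd1 at 2.69 TPM for the striatum, and no marker on any of these lists was at 0 in both libraries. In a whole tissue, few cells with much RNA of a gene and many cells with little of it cannot be told apart.

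All 10 genes were detected, that is, each library held at least 1 TPM of them, as were 57.7% of all annotated protein-coding genes. The median of the 10 was 138 TPM, beside 14.7 TPM over the detected protein-coding genes. Their levels ran from 6.26 ± 0.120 TPM for Sv2c to 765 ± 0.636 TPM for Syp. Each family had a pair of abundant genes, and the synapsins and the SV2 genes each had a member below 10 TPM.

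Syn1 and Syn2 carried the synapsin RNA of the tissue. Syn2 (ENSMUSG00000009394, chr6:115134902-115282006, plus strand) had 247.41 and 238.42 TPM in replicates 1 and 2, from 18677 and 18593 expected counts. Syn1 (ENSMUSG00000037217, chrX:20860511-20921004, minus strand) had 184.68 and 179.11 TPM, from 13021 and 12977 counts. Both libraries of Syn2 were above both of Syn1, at a ratio of the means of 1.34. Counted over protein-coding transcripts only, in the quantification made directly from the reads, the order turned and the genes overlapped, with 284 and 273 TPM for Syn2 and 285 and 279 TPM for Syn1. Syn3 (ENSMUSG00000059602, chr10:86055125-86498896, minus strand), the third synapsin, had 8.59 and 8.64 TPM, from 513 and 509 counts. Of the summed TPM of the family, Syn2 made up 56.0% ± 0.140, Syn1 42.0% ± 0.0848 and Syn3 1.99% ± 0.0552. Syn3, the longest of the 10 genes at 444 kb, was the least abundant synapsin. Of the detected protein-coding genes, 98.5% lay below Syn2, 97.4% below Syn1 and 33.6% below Syn3.

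Syp, the gene of synaptophysin, was the most abundant of the 10. Syp (ENSMUSG00000031144, chrX:7638471-7653256, plus strand) had 764.21 and 765.11 TPM in the 2 libraries, from 30404 and 30128 counts, and ranked 32 among the 12710 detected protein-coding genes. Its level was 3.15 times that of Syn2, the next gene. Syngr1 (ENSMUSG00000022415, chr15:80091334-80119501, plus strand), the gene of synaptogyrin 1, had 154.8 and 152.3 TPM. Synpr (ENSMUSG00000056296, chr14:13284780-13616340, plus strand), which encodes synaptoporin, known from hippocampal mossy fibre terminals, had 72.96 and 79.39 TPM. Syngr3 (ENSMUSG00000007021, chr17:24685092-24689955, minus strand), the gene of synaptogyrin 3, had 63.23 and 67.22 TPM. Syp made up 72.2% ± 0.365 of the summed TPM of these 4 genes, Syngr1 14.5% ± 0.252, Synpr 7.19% ± 0.387 and Syngr3 6.15% ± 0.230. Synpr and Syngr3 had similar totals of counts, 2647 and 2851 for Synpr and 2653 and 2898 for Syngr3, and both libraries of Synpr were above both of Syngr3 in TPM, at a ratio of 1.17.

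Sv2a and Sv2b shared the SV2 RNA almost evenly. Sv2a (ENSMUSG00000038486, chr3:96181151-96195521, plus strand) had 150.86 TPM in the first library and 154.24 TPM in the second, and Sv2b (ENSMUSG00000053025, chr7:75114894-75309262, minus strand) had 126.01 and 121.23 TPM. Both libraries of Sv2a were above both of Sv2b, at a ratio of 1.23. Counted over protein-coding transcripts only, the genes overlapped, with 123 and 126 TPM for Sv2a and 124 and 119 TPM for Sv2b, and from the reads directly Sv2b was then the higher on average, at a ratio of 1.02 with overlap. The counts had the other order, 14813 and 14587 for Sv2b and 11963 and 12605 for Sv2a, whose transcripts are shorter. Sv2c (ENSMUSG00000051111, chr13:95954594-96132577, minus strand) had 6.35 and 6.18 TPM, from 1017 and 999 counts. Of the summed TPM, Sv2a made up 54.0% ± 1.06, Sv2b 43.8% ± 1.02 and Sv2c 2.22% ± 0.0338.

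The order of the 10 levels was Syp, Syn2, Syn1, Syngr1, Sv2a, Sv2b, Synpr, Syngr3, Syn3 and Sv2c. In 8 of the 9 neighbouring pairs both libraries of one gene lay above both of the other. The exception was Syngr1 and Sv2a, at a ratio of 1.01, where Sv2a of replicate 2 lay above Syngr1 of replicate 2. The widest steps were from Syngr3 to Syn3, at a ratio of 7.57, and from Syp to Syn2.

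**Figure D1:**
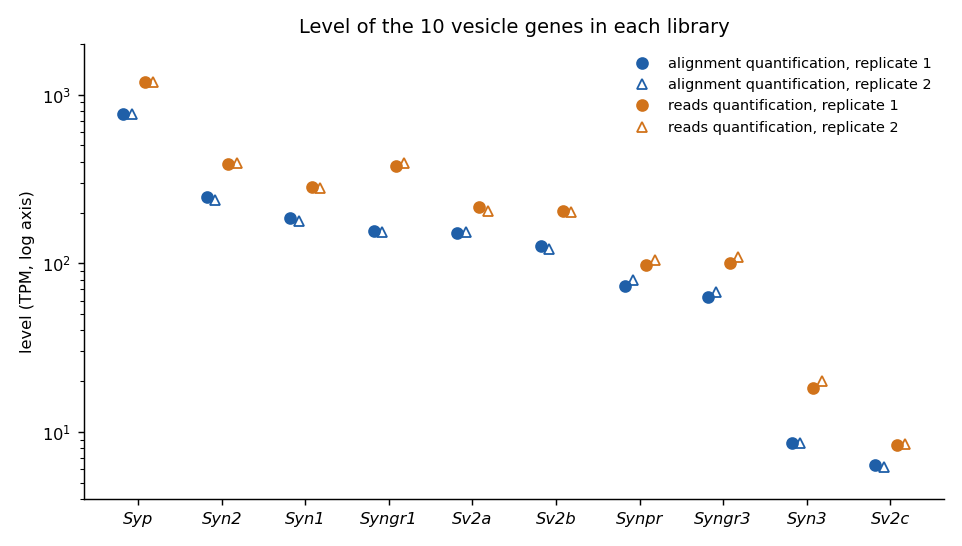
Level of each gene in TPM on a log axis, ordered by mean, with filled circles for replicate 1 and open triangles for replicate 2, in the alignment quantification (blue) and the reads quantification (orange). The 2 libraries lie close together for every gene, Syp is the highest in both quantifications, and Syn3 and Sv2c lie apart at the low end.

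The libraries differed little for any of the 10 genes. None of them was 2-fold apart in TPM, nor were most others: among the 13916 genes with 50 or more expected counts in each library, 0.273% were. On the log2 scale the TPM ratio of replicate 2 over replicate 1 ran from -0.06 for Sv2b to 0.12 for Synpr, with a median of -0.01 and 5 genes to either side of 0. Over the 13916 genes the middle 95% of ratios ran from -0.47 to 0.36, with a median of -0.04. The exact 95% interval for counting error of the ratio of count shares left out 1 for 3 of the 10 genes, beside 20.3% of the 13916 genes. The 3 were Synpr at 1.08 (1.03 to 1.14), Syngr3 at 1.10 (1.04 to 1.16) and Sv2a at 1.06 (1.03 to 1.08), each higher in replicate 2. Among the cell type markers with 50 or more counts in each library, the choroid plexus gene Ttr alone was 2-fold apart, at 10.64 and 23.09 TPM. Of the other choroid plexus markers, Kl had 4.04 and 3.96 TPM from 459 and 461 counts, and Folr1 0.08 and 0.23 TPM from 1 and 4 counts. The part of this tissue in these ratios was not tested. The counting interval covers the counting of reads in these libraries and no spread between animals.

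**Figure D2:**
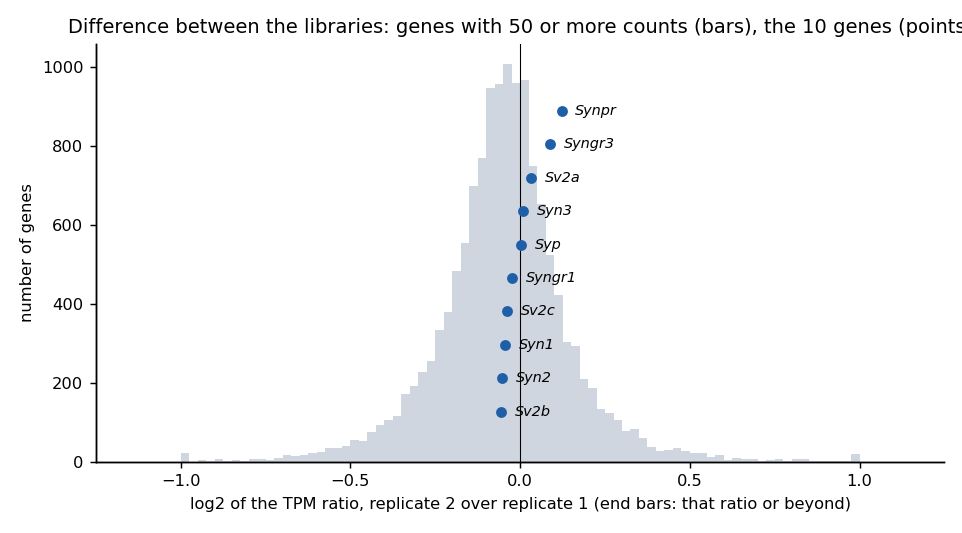
Number of genes (bars) by the log2 of their TPM ratio, replicate 2 over replicate 1, over the 13916 genes with 50 or more expected counts in each library, with the end bars holding ratios at or beyond that value. The points place the 10 genes on the same axis, at arbitrary heights, from -0.06 for Sv2b to 0.12 for Synpr, inside the bulk of the bars.

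The 10 genes have 50 annotated transcripts, of which 24 are protein-coding. The most abundant transcript was the same in both quantifications for 7 of the 10 genes, beside 75.2% of detected genes with more than 1 transcript. The exceptions were Syn1, Syn2 and Sv2b. In Syn2 and Sv2b the leading transcripts of both quantifications hold the same coding sequence. With the transcripts of 1 coding sequence summed, 6 of the 7 genes with several coding sequences had the same one in the lead, beside 84.0% of such genes, and Syn1 was the exception.

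Syn1 had its RNA divided between synapsins Ia and Ib in the alignment quantification and mostly on Ib in the other. Syn1-201 (Ia) had 93.1 and 89.8 TPM and Syn1-202 (Ib) 91.6 and 89.3 TPM, a share of Ia of 50.3% ± 0.163. From the reads directly, Syn1-201 had 92.0 and 78.0 TPM and Syn1-202 193 and 201 TPM, a share of Ia of 30.2% ± 3.08. The 2 transcripts have 3171 bases in common, with 38 found only in Syn1-201, the capitals printed for it above, and 90 only in Syn1-202. The share of Ia differed more between the quantifications than between the libraries of either.

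For Syn2 both quantifications put more RNA on IIb than on IIa. Syn2-201 (IIa) had 56.3 and 54.4 TPM and the summed IIb transcripts 153 and 156 TPM, a share of IIa of 26.3% ± 0.744 among protein-coding transcripts. From the reads directly, Syn2-201 had 86.4 and 82.5 TPM and the IIb transcripts 198 and 190 TPM, a share of IIa of 30.3% ± 0.105. The IIb transcripts share their coding sequence and differ by 48 bases at the 5′ end, and the alignment quantification gave all IIb RNA to Syn2-203, with Syn2-202 at 0, where the other gave nearly all of it to Syn2-202. A processed transcript, Syn2-206, held 34.3 and 24.3 TPM, and 94.9 and 86.1 TPM from the reads directly.

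**Figure D3:**
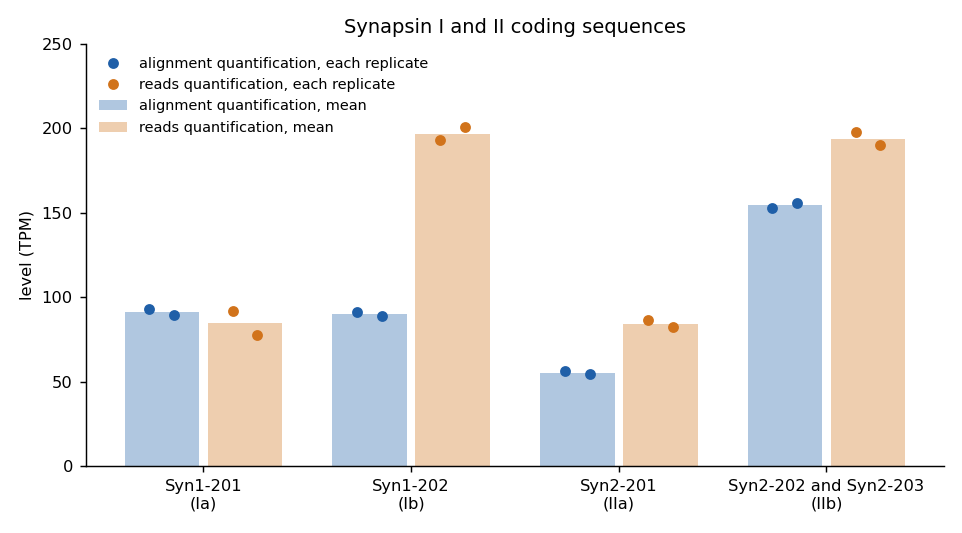
Level in TPM of the synapsin Ia, Ib, IIa and IIb coding sequences, with bars for the mean of 2 libraries and points for each library, in the alignment quantification (blue) and the reads quantification (orange). In TPM that is not rescaled, Syn1-202 differs most between the quantifications, at 91.6 and 89.3 against 193 and 201 TPM. Gene levels run higher in the reads quantification, so blue and orange bars are not on the same scale. IIb is above IIa in both.

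In the alignment quantification Syn3 rested mainly on Syn3-201, the long synapsin IIIa form of 579 residues. Syn3-201 had 6.86 and 7.07 TPM, 80.8% of the gene. From the reads directly it had 9.87 and 9.48 TPM, 54.2% and 47.2% of the gene, with a mean of 50.7%. There Syn3-205, a processed transcript of 566 bases, had 3.27 and 5.13 TPM, and Syn3-204, a retained intron, 2.20 and 2.96 TPM, while both were at or near 0 in the alignment quantification. Among protein-coding transcripts alone the share of Syn3-201 was 94.6% and 93.1% in the 2 quantifications.

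Syp had much of its TPM, but few of its counts, on short transcripts. Syp-201, the full transcript with 314 residues, had 506 and 484 TPM, and Syp-206, a processed transcript of 433 bases, 243 and 264 TPM. Syp-206 thus held 33.2% of the TPM of Syp but 6.39% of its expected counts, since TPM divides by length. In the quantification made from the reads Syp-206 was at 0, and Syp-202, a protein-coding transcript of 494 bases, had 330 and 346 TPM, 28.5% of the gene's TPM and 2.87% of its counts. That transcript had 0 and 0.790 TPM in the alignment quantification. The annotation gives 374 of the 433 bases of Syp-206 and 392 of the 494 bases of Syp-202 also to Syp-201. Syp-201 led in both quantifications, with 92.9% and 96.8% of the gene's counts.

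Synpr had a large share of RNA on transcripts that are not protein-coding. Synpr-201 (285 residues) had 38.1 and 41.3 TPM and the processed transcript Synpr-208, of 668 bases, 25.6 and 28.8 TPM, all of whose bases also lie in Synpr-201. From the reads directly, Synpr-201 had 62.4 and 68.0 TPM, Synpr-208 17.8 and 19.7 TPM and Synpr-209, another processed transcript, 13.1 and 13.8 TPM. Counted over protein-coding transcripts only, Synpr fell below Syngr3, with 39.7 and 41.7 TPM against 63.2 and 67.2 TPM, so the order of these genes depends on which transcripts are counted.

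Both synaptogyrin genes had a larger share on minor transcripts from the reads directly than in the alignment quantification. Syngr1-201 had 142 and 138 TPM, 90.9% of the gene, and Syngr1-202, with the other last exon printed above, 12.2 and 14.4 TPM, 8.66% of it. From the reads directly, Syngr1-201 had 211 and 207 TPM, 54.4% of the gene. There Syngr1-204 held 26.5% and 31.7% of the gene's TPM and Syngr1-203 15.1% and 12.9%, short protein-coding transcripts of 479 and 576 bases that were below 1 TPM in the alignment quantification. Syngr1-201 held 98.3% and 95.8% of the expected counts in the 2 quantifications. For Syngr3 the alignment quantification put all RNA on Syngr3-201 (229 residues), and the other gave Syngr3-202, a processed transcript, 29.2 TPM in replicate 1 and 9.17 TPM in replicate 2.

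In each SV2 gene a single coding sequence held most of the RNA, and in Sv2b the quantifications divided it differently over transcripts with different starts. Of these, Sv2b-204 lacks 1611 bases of Sv2b-201, and Sv2b-202 lacks 175. Sv2a-201 (742 residues) had 123 and 126 TPM, and Sv2a-203, a processed transcript of 432 bases, 22.8 and 23.6 TPM, which is 15.2% of the TPM of Sv2a and 1.43% of its counts. From the reads directly, Sv2a-201 had 192 and 201 TPM, and Sv2a-203 16.8 TPM in replicate 1 but 0.00501 TPM in replicate 2. Sv2b-201, Sv2b-202 and Sv2b-204 encode the same 683 residues with the starts of Sv2b-202 and Sv2b-204 lying 883 and 88360 bases from that of Sv2b-201. They had 72.9 and 69.7, 50.2 and 48.1, and 0.890 and 1.03 TPM in this order, and 20.6 and 14.4, 127 and 124, and 55.8 and 62.1 TPM from the reads directly. Summed, the shared coding sequence held 98.2% ± 0.284 of Sv2b and 99.2% from the reads directly. Sv2c-201 (727 residues) had 4.62 and 4.39 TPM and Sv2c-203 (667 residues) 1.73 and 1.79 TPM. From the reads directly, these had 7.54 and 6.99 TPM and 0.818 and 1.43 TPM.

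At least 10% of the TPM lay on transcripts not annotated as protein-coding in 5 of the 10 genes, Syn2, Syn3, Syp, Synpr and Sv2a, beside 51.8% of detected protein-coding genes. From the reads directly these were 4 of the 10, Syn2, Syn3, Synpr and Syngr3, beside 55.4%. Neither share lay far from that of all genes. In the alignment quantification the gene levels that moved most in proportion when such transcripts were left out were those of Synpr, from 76.2 to 40.7 TPM, and Syp, from 765 to 496 TPM. In the reads quantification such transcripts held 45.5% of Syn3, 32.9% of Synpr and 28.9% of Syn2, and 0.235% of Syp.

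**Figure D4:**
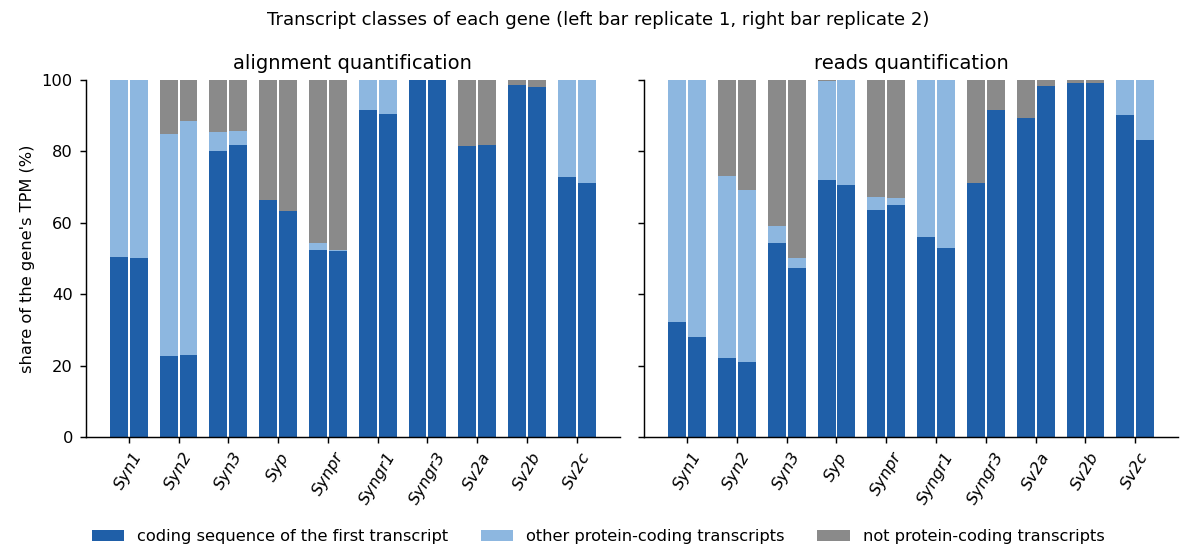
Share of each gene's TPM in percent on the coding sequence of its first annotated transcript (dark blue), on other protein-coding transcripts (light blue) and on transcripts not annotated as protein-coding (grey), with a bar for each library, in the alignment quantification (left panel) and the reads quantification (right panel). The grey share of Syp averages 35.2% in the left panel and 0.235% in the right one, Synpr has a grey share in both, and the dark share of Syn1 falls from 50.3% to 30.2% on average.

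Every level was higher in the quantification made from the reads, in which protein-coding genes of the nucleus hold 74.2% and 74.4% of TPM in the 2 libraries against 42.1% and 41.2% in the alignment quantification. With each quantification rescaled over those genes alone, the log2 difference of reads over alignment ran from -0.42 for Synpr to 0.49 for Syngr1. The middle 95% of 12688 detected protein-coding genes lay between -0.59 and 0.64, so all 10 genes were inside it. From the reads directly the order was Syp, Syn2, Syngr1, Syn1, Sv2a, Sv2b, Syngr3, Synpr, Syn3 and Sv2c, with 7 of 9 neighbouring pairs apart. Syn2 and Syngr1 were not apart, at 390 and 394 against 377 and 392 TPM, and neither were Syngr3 and Synpr, at 101 and 109 against 98.1 and 105 TPM.

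Each synapsin gene holds a gene of the Timp family, inhibitors of matrix metalloproteinases, on the opposite strand inside its bounds. The spike-in profile is labelled as one for stranded libraries, but whether strand was used in counting is not given in the labels, so reads over bases that such a pair shares may not have been separated. Timp1, inside Syn1, had 0 TPM in replicate 1 and 0.06 TPM in replicate 2, from 0 and 1 counts. Timp4, inside Syn2, had 9.21 and 10.76 TPM, from 746 and 771 counts. Timp3, inside Syn3, had 25.23 and 23.21 TPM, from 2502 and 2349 counts, above its host gene in both libraries, whereas Timp1 and Timp4 lay far below theirs. Timp4 has 90 exon bases in common with each Syn2 transcript named above, Syn2-201, Syn2-202, Syn2-203 and the processed transcript Syn2-206. Timp3 has 1733 with Syn3-203, a retained-intron transcript at 0.740 and 0.710 TPM, and none with Syn3-201.

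**Figure D5:**
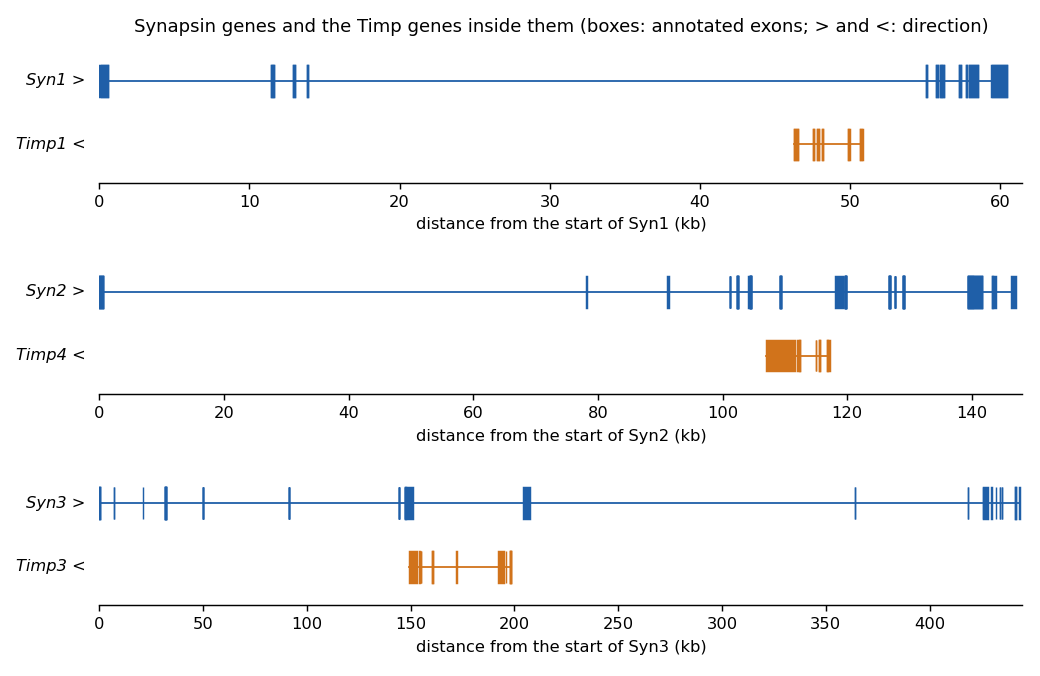
Annotated exons (boxes) of the synapsin genes (blue) and of the Timp genes inside them (orange), as distance in kb from the start of the synapsin gene, with arrows for the direction of each gene. Timp1 lies 46.3 to 50.8 kb from the start of Syn1, Timp4 107 to 117 kb from that of Syn2 and Timp3 149 to 199 kb from that of Syn3, each running against its host.

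Other genes overlap the ends of members on the opposite strand. Rpl3, the gene of a ribosomal protein, overlaps the first part of Syngr1 with no exon in common and had 237.6 and 252.71 TPM. Araf, the gene of a kinase of the Raf family, overlaps the end of Syn1 in exons, within chrX:20860511-20860519, and had 81.06 and 81.12 TPM. The antisense gene Gm14703 overlaps the end of Syp and was at 0.41 and 0.28 TPM, from 16 and 11 counts. Of the 2561 different 31-base words of Syp-201, 33.1% also occur in Gm14703 when either strand is read. The gene 1500012K07Rik overlaps the first part of Sv2b in exons, and had 0.09 and 0.08 TPM, and 2.52 and 2.65 TPM from the reads directly. Gm20075 lies inside Sv2c on the same strand, at 9.40 and 9.93 TPM, with no exon in common. For Syn1, Synpr, Syngr1, Syngr3, Sv2a and Sv2b no 31-base word of the first annotated transcript occurs in another gene's transcripts, and for Syn2, Syn3 and Sv2c at most 3.09% of words do. The words of the other transcripts of these genes, such as Sv2b-202, were not searched.

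The families are related in protein sequence, as computed from the annotated coding sequences over aligned residues. Syn1-201 and Syn2-201 are identical at 67.4% of them, Syn1-201 and Syn3-201 at 60.7% and Syn2-201 and Syn3-201 at 63.2%. The SV2 proteins range from 61.6% for Sv2b-201 and Sv2c-201 to 65.7% for Sv2a-201 and Sv2b-201. Synaptophysin and synaptoporin are identical at 59.5% and the 2 synaptogyrins at 51.5%, while a synaptophysin and a synaptogyrin share between 23.0% and 30.5%. Relatives this similar had levels as far apart as those of Syp and Synpr or of Sv2a and Sv2c.

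RefSeq promoter windows on GRCm38.p6, from 250 bases before to 50 after a start, were matched for 8 of the 10 genes, with 13 windows, and not for Syn3 and Syngr3. Their median GC content was 59.0%, from 35.3% to 72.3%, beside 52.7% over 32841 windows. Letters were searched on both strands, and none of the motifs contains another. The GC box GGGCGG, bound by Sp1, occurred in 7 of 13 windows, beside 35.7% of all windows. TTCAGCACC, the left arm of the RE1 element bound by REST, a repressor of neuronal genes, occurred in the window of Syn1 alone, beside 0.371% of all windows, as did the cyclic AMP element TGACGTCA, beside 1.79%. TATAAA occurred in 2 windows of Sv2b, beside 13.6%. A match is a run of letters and no measured binding.

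Other genes of the vesicle gave a frame for these levels. Of the family members besides the 10, 4 of 6 were detected, and the median over all 6 was 2.89 TPM. The detected ones were Svop, an SV2-related vesicle protein, at 73.7 ± 0.325 TPM, Sypl, the more widely expressed synaptophysin-like gene, at 17.7 ± 0.304 TPM, Syngr2 at 4.55 ± 0.537 TPM and Sypl2 at 1.23 ± 0.00707 TPM. Of 8 vesicle transporters, 6 were detected, and the median over all 8 was 16.3 TPM. Slc17a7, the glutamate transporter VGLUT1, led them at 585 ± 7.55 TPM, before Slc6a17 at 115 ± 4.72 TPM and Slc30a3 at 36.5 ± 0.0778 TPM. Slc32a1, the transporter for GABA and glycine, had 27.3 ± 0.870 TPM. Over all transcripts, Syp was above the most abundant transporter gene on this list. The same held from the reads directly, at 1189 and 1186 against 927 and 955 TPM. The protein-coding transcripts of Syp alone had 496 TPM in the alignment quantification, below the 585 TPM of Slc17a7 over all its transcripts. In expected counts Slc17a7 was the higher, with 36478 and 38191 against 30404 and 30128.

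All 12 listed fusion and trafficking genes were detected, at a median of 81.1 TPM. They were led by the calcium sensor Syt1 at 410 ± 17.1 TPM and the SNARE gene Vamp2 at 404 ± 14.1 TPM, with the small GTPase Rab3a at 319 ± 8.56 TPM. All 15 genes listed for the vacuolar ATPase, the proton pump that drives the filling of vesicles, were detected, at a median of 166 TPM. They ran from 77.2 to 485 TPM, a narrower range than that of the 10 genes. Both the detection and the range hold for the genes chosen for the list and not for every gene of the pump. All 9 listed genes of kinases and phosphatases that act on synapsin were detected, at a median of 104 TPM. They were led by the calcineurin gene Ppp3ca at 553 ± 8.67 TPM and Camk2b, a subunit of calcium/calmodulin-dependent kinase II, at 493 ± 2.89 TPM. No gene of these lists with 50 or more counts was 2-fold apart between the libraries.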

How the data were processed

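Total RNA of 2 hippocampus libraries was measured. Per the deposited listings, one quantification of genes and transcripts came from an alignment of reads to the transcriptome and another of transcripts directly from the reads, both on mm10 with GENCODE M21. Which programs were run is not given in the sources used here. In the deposited tables, an expected count is an estimated number of reads, and TPM is abundance per length scaled to a fixed sum, per the file headers.

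Transcript TPM of the second quantification was summed per gene. Calls followed the thresholds named with the results, and expected counts were rounded for the exact binomial intervals. TMM factors came from edgeR 4.0.16. Scripts ran under Python 3.11.15, and protein identity was taken from global alignments with Biopython 1.88. The 2-fold call was tested on simulated counts with counting error only and planted 4-fold changes. That check does not cover spread beyond counting error. Named transcripts held at least 10% of a gene in either quantification or led it, apart from Syngr1-202, printed for its last exon, and Syn3-203, named for its overlap with Timp3. Up to 4 genes of each related list were named, by mean TPM. The members and lists were chosen with earlier results of these data known. Reads were placed on the C57BL/6J reference whatever their parental haplotype, and the loss of CAST/EiJ reads was not measured. Syn1 and Syp lie on the X chromosome, of which males carry a single copy, while the other members have both parental haplotypes. Whether such a loss shifted the levels of Syn1 and Syp relative to the other members, and with them the family shares, was not tested.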

Additional observations from a re-analysis of the deposited data

How the results depend on the processing

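The 10 genes stayed detected at TPM thresholds of 0.5 and 5, in both quantifications and without either library. None was 2-fold apart with TMM-scaled counts, a pseudocount of 1, a count minimum of 10 or none, or in the reads quantification. In the reads quantification the share of Syn2 in its family was 56.6%, that of Syp 66.8% and that of Sv2a 49.8%, and with coding transcripts only, an alternative chosen after seeing the data, 52.6%, 65.6% and 49.4%. Of its gene's TPM, Syn1-201 held 30.2%, Syn2-201 21.6% and Syp-201 71.3% in the reads quantification, and with protein-coding transcripts only Syn2-201 held 26.3% and Syp-201 99.9%. The cause of these moves was not tested. The sum over equal coding sequences was also chosen after seeing the data. No paired analysis was possible because there is only 1 group. With 513 and 509 counts, Syn3 has the widest counting interval of the 10 genes, 0.879 to 1.13 for the ratio of its count shares.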
